A study of Mus musculus with 10 samples.

Results

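Potassium channels are membrane proteins that let potassium ions leave or enter a cell, and they set the resting potential, end the action potential and clear potassium from the space around neurons. Their genes share symbols that start with Kcn, and the letters that follow name the subfamily. The members described here were chosen by that symbol together with a base mean of at least 10 in the table that the authors deposited for the spinal cord of mice. The rule took 84 of the 25232 genes of the table. Of these, 79 code for channel subunits and 5 are other genes that carry the symbol, 4 of them antisense or other noncoding transcripts.

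The study sequenced RNA from the spinal cord of female C57BL/6 mice (C57BL/6J in the methods) at 90 days of age, with 5 libraries from SOD1 G93A mice and 5 from wild type (WT) littermates. SOD1 G93A mice are a model of amyotrophic lateral sclerosis (ALS): a transgene in many copies expresses mutant human SOD1 in the cells of the animal, and motor neurons degenerate. The human transgene had no row of its own in the table, so the genotype could not be checked. The labels name no treatment in either group.

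The base mean is the mean, over all 10 libraries, of the read counts that the authors divided by a size factor per library. Every value below is therefore 1 pooled mean made by the authors for both genotypes together. It has no standard deviation, no value per mouse and no depth per library, so no difference between SOD1 G93A and WT mice was tested and no interval could be given. To set genes beside each other, each base mean was divided by the length of the merged exons of the gene in kilobases (kb), and this base mean per kb is the level of the gene. In bulk tissue, fewer cells of a type and less RNA per cell cannot be told apart. Without a spread between libraries, genes with similar levels could not be placed in a firm order.

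The tissue was checked against defining markers. The myelin genes Mbp and Mobp had levels of 37740 and 12482 base mean per kb. The astrocyte genes Gfap, Slc1a2, Aqp4 and Slc1a3 had levels of 13345, 4207, 2577 and 464. The neuronal genes Snap25, Tubb3, Syt1 and Rbfox3 had 8695, 6802, 630 and 601. The microglial genes Cx3cr1, P2ry12, Tmem119 and Aif1 had 284, 229, 207 and 72.2 base mean per kb. Of the motor neuron markers, Slc5a7 and Chat had 410 and 156 base mean per kb, while Mnx1 and Isl1 had 16.6 and 11.5. The posterior position genes Hoxc10 and Hoxd10 were present at 256 and 83.6 base mean per kb, and the forebrain gene Neurod6 had 36.7. Markers of tissue next to the cord were also found: the Schwann cell genes Pmp22 and Prx had levels of 1418 and 86.8, the sensory neuron genes Avil, Scn10a and Trpv1 had 21.1, 10.9 and 4.05, and the muscle genes Acta1 and Ckm had 163 and 36.9. Potassium channel transcripts of nerve roots, sensory ganglia or muscle would be counted in the values below, and their part was not tested.

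The pore of a potassium channel is lined by a short selectivity filter, whose backbone coordinates the ion. Its residues are usually a threonine or serine, a hydrophobic residue, a glycine, an aromatic residue and a glycine. Voltage-gated and inward rectifier subunits carry 1 pore loop each and form channels of 4 subunits, two-pore-domain subunits carry a pair of pore loops, and auxiliary subunits have none. The coding bases of the filter are shown for members of high level in each pore-forming class, so that the classes can be set side by side. Each run gives, 5' to 3' on the coding strand, the 15 bases of the filter in capitals with 15 bases before and after, from the GENCODE M21 transcripts of the mm10 genome, and all of them lie in coding exons.
Kcnj16: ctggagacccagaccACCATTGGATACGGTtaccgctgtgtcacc
Kcna1: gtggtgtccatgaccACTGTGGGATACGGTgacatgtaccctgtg
Kcna2: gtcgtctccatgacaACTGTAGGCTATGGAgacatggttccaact
Kcnc1: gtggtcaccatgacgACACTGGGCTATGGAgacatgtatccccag
Kcng4: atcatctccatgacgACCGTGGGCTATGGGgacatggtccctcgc
Kcnh2: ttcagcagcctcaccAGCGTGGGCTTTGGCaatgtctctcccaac
Kcnk1, first pore: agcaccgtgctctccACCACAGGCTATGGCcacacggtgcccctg
Kcnk1, second pore: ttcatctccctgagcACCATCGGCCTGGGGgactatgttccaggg
Kcnt1: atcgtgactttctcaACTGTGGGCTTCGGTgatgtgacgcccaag

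The filter starts at residue 131 of the Kcnj16 protein, at residue 372 of Kcna1 and at residue 400 of Kcnc1. Kcna1 and Kcna2 shared 31 of the 45 bases shown, 11 of them among the 15 of the filter. Kcna1 and Kcng4 also shared 31 bases, and Kcna1 and Kcnc1 shared 33. Kcna1 shared 27 with Kcnt1, 25 with Kcnj16, 20 with Kcnh2 and 19 with the first pore of Kcnk1. Within the 15 filter bases, Kcna1 shared 13 with Kcnt1, 12 with Kcnj16, 11 with Kcng4 and 10 with Kcnc1. It shared 9 there with Kcnh2 and 8 with the first pore of Kcnk1. The likeness to Kcna1 thus did not follow the subfamily or the class. The first and second pore of Kcnk1 shared 22 of 45 bases.

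A search of the coding sequences for the filter allowed serine or threonine, then valine, isoleucine, leucine or threonine, then glycine, then tyrosine, phenylalanine or leucine, then glycine. It gave 77 matches in the 79 subunit genes. Each of the 57 pore-forming genes outside the two-pore-domain class had 1 match, each of the 10 two-pore-domain genes had 2, and the 12 auxiliary genes had 0. The aromatic position was tyrosine in 51 matches, phenylalanine in 24 and leucine in 2. All 8 Kcnh genes, both Kcnt genes and Kcnu1 had phenylalanine there, as did Kcnj11 and Kcnj8, which code for the pore of the ATP-sensitive channel. In the two-pore-domain class the first match held tyrosine in 7 genes and phenylalanine in 3, whereas the second held phenylalanine in 8 and leucine in 2. The classes were set by known role and the search was written for the known filter. These counts therefore describe the sequences and do not test the division into pore-forming and auxiliary genes.

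Across the 79 subunit genes the level ranged from 2.63 base mean per kb for Kcnn4 to 4977 for Kcnj10, a ratio of 1894. The median level was 99.6 base mean per kb, beside 117 for all 15631 genes that passed the same minimum and had a length. Among those genes, 10 subunit genes (12.7%) lay at or above the 90th percentile of levels and 23 (29.1%) at or below the 25th, and 35 (44.3%) lay above the median. The subunit genes were thus spread over the whole range of the transcriptome. The range from the 20th to the 30th percentile held most, 14 genes where an even spread would give 7.9. Together the 79 genes held 0.745% of the summed base mean of the table. Before scaling by length, 25 of them had a base mean of 1000 or more and 18 had one under 100.

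**Figure D1:**
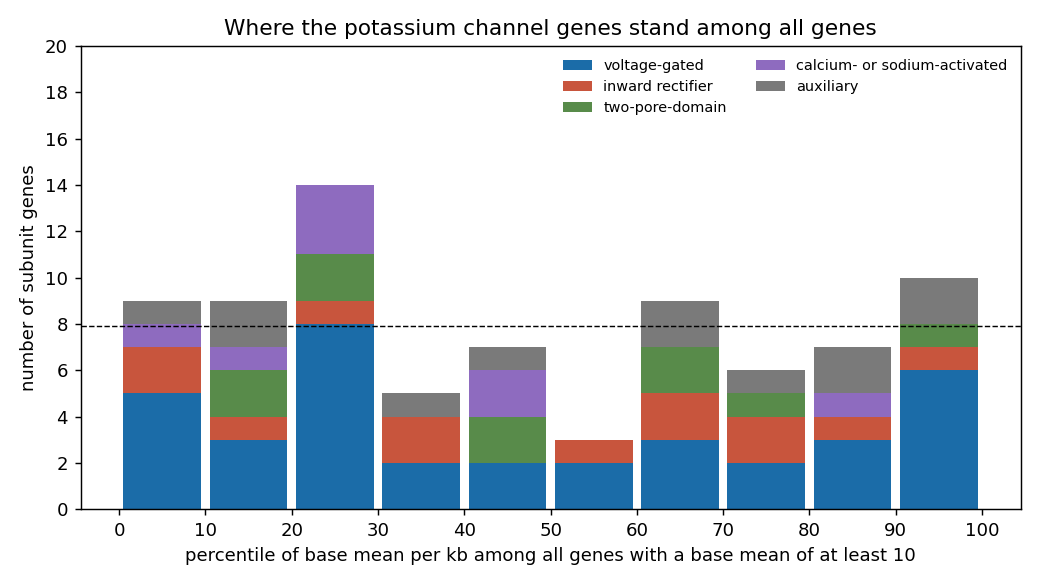
Number of the 79 subunit genes (y axis) in bins of 10 percentiles of base mean per kb among all 15631 genes that reached the minimum and had a length (x axis), coloured by class, with a dashed line at the even spread of 7.9. The bin from 20 to 30 holds 14 genes and the highest bin holds 10, 6 of them voltage-gated.

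A small number of genes made up most of the summed level. Kcnj10 alone held 17.6% of it, the 10 highest genes held 67.2% and the 20 highest 83.4%. Among the 10 highest were Kcnj10, Kcna1, Kcnab2, Kcna2, Kcnk1, Kcnab3, Kcnc1, Kcng4 and Kcnh2. By class, the 36 voltage-gated genes held 47.2% of the summed level, the 13 inward rectifier genes 23.7%, the 12 auxiliary genes 18.4%, the 10 two-pore-domain genes 7.50% and the 8 calcium- or sodium-activated genes 3.12%. The order of the medians was different: 179 base mean per kb for the auxiliary genes, 150 for the inward rectifiers, 98.6 for the two-pore-domain genes, 79.2 for the voltage-gated genes and 43.7 for the calcium- or sodium-activated genes.

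**Figure D2:**
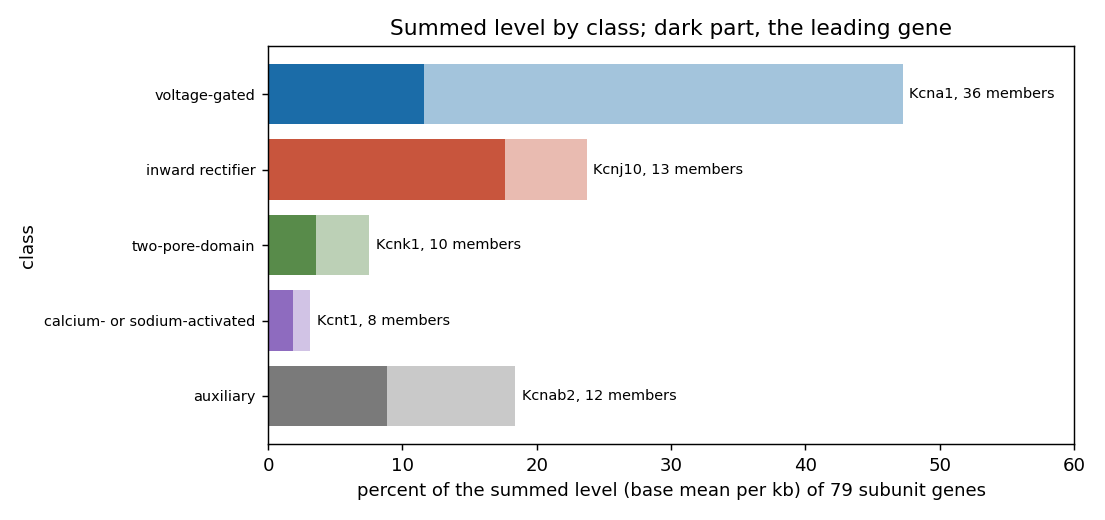
Share of the summed level (base mean per kb) of the 79 subunit genes held by each class, in percent on the x axis, with the leading gene as the dark part of each bar and its name and the number of members beside it. Kcnj10 makes up 74.2% of the inward rectifier bar, whereas Kcna1 makes up 24.6% of the voltage-gated bar.

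**Figure D3:**
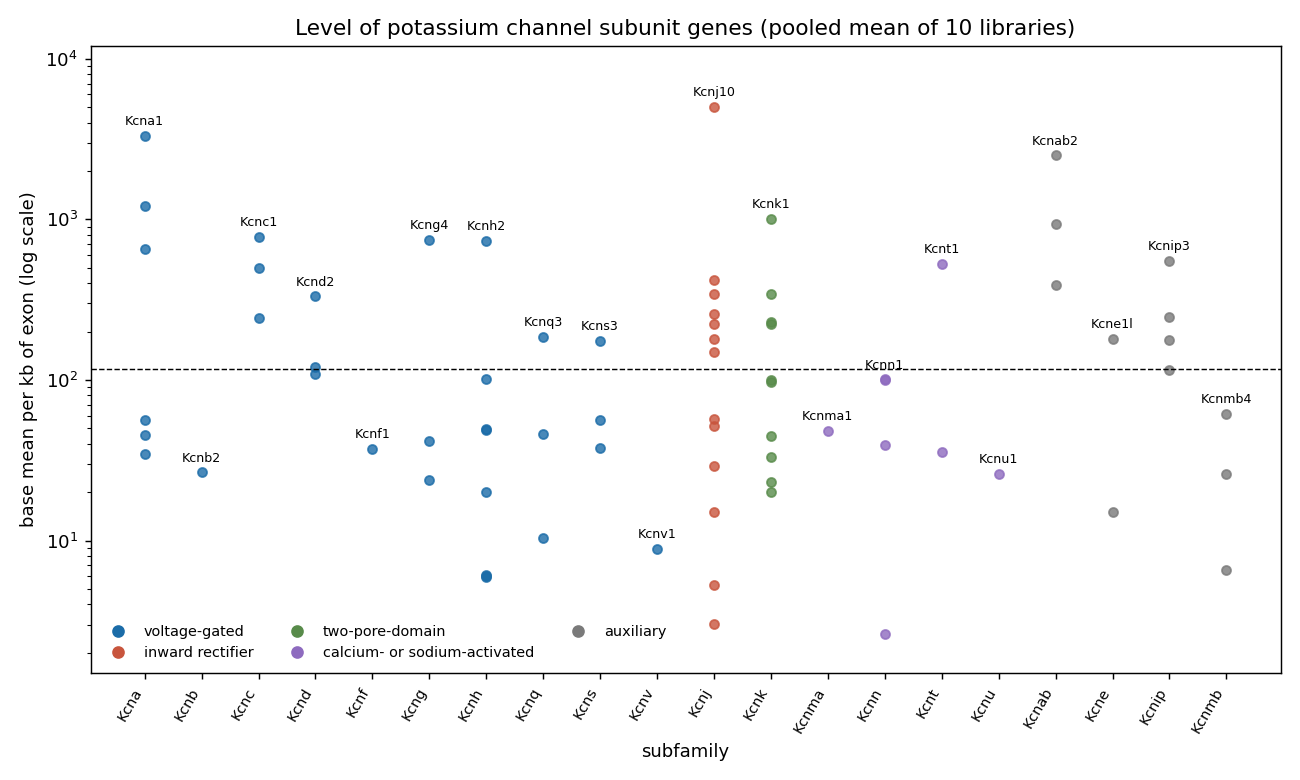
Level of 75 subunit genes as base mean per kb on a log scale (y axis) by subfamily (x axis), 1 point a gene, with the highest plotted gene of each subfamily named and a dashed line at the median of 117 for all genes. Points within Kcnj reach from 3.02 for Kcnj5 to 4977 for Kcnj10.

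Among the voltage-gated genes, the Kcna (Kv1) subfamily held 18.7% of the summed level. Its subunits open near threshold and limit repetitive firing, and Kcna1 and Kcna2 are known from the juxtaparanodes of myelinated axons. Kcna1 (mm10 chr6:126640397-126646384, minus strand) had a base mean of 15709 and a level of 3286 base mean per kb. Kcna2 (chr3:107101146-107115005, plus strand) had a base mean of 14313 and a level of 1202 per kb. The ratio of Kcna1 to Kcna2 was thus 2.73 per kb of exon but 1.11 per kb of coding sequence, because Kcna2 has 11906 bases of merged exons and a coding length of 1497. Kcna6 followed at 650 base mean per kb. The levels of the other Kcna members, Kcna3, Kcna4 and Kcna5, were 56.4, 45.4 and 34.6, all under the median of all genes. The subfamily therefore fell into a high and a low set of 3 genes each.

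The Kcna genes lie in clusters in the genome, and neighbours did not share a level. On chromosome 6, Kcna5, Kcna1 and Kcna6 follow each other with 104984 and 61944 bases between them, at 34.6, 3286 and 650 base mean per kb. On chromosome 3, Kcna3 lies 63075 bases from Kcna2, and Kcna2 lies 68050 bases from Kcna10, which had a base mean of 1.38 and did not reach the minimum. Of the exon bases of Kcna6, 39.6% are shared with a gene on the other strand. The strand setting of the authors' counting was not given in the sources used here, so reads of such partners may not be told apart.

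The Kcnc (Kv3) channels repolarise fast-spiking neurons. Kcnc1 (chr7:46396497-46438704, plus strand) had a base mean of 7373 and a level of 780 base mean per kb, among the 10 highest of the subunit genes. Kcnc4 had a level of 497 and Kcnc2 had 242. All 3 of these genes lay above the median level of all genes, and none of their exon bases are shared with another gene.

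The Kcnb (Kv2) genes code for slow delayed rectifiers, and the Kcng, Kcns, Kcnf and Kcnv genes code for silent subunits, which form no channel alone and change the gating of Kv2 partners. Kcnb2 had a level of 26.6 base mean per kb. Of the silent subunits, Kcng4 (chr8:119623854-119635680, minus strand) stood highest with a base mean of 2836 and a level of 745 per kb. Kcns3, Kcns1, Kcng1, Kcns2, Kcnf1, Kcng2 and Kcnv1 had levels of 175, 56.7, 41.4, 37.6, 37.3, 23.7 and 8.87 base mean per kb. Kcng4 held 92.0% of the summed level of the 3 Kcng genes. The silent subunits together summed to 1125 base mean per kb. Amigo1, an adhesion protein that associates with Kv2 channels, had 436 base mean per kb.

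The Kcnd (Kv4) genes carry the A-type current that delays firing. Kcnd2 had a level of 331 base mean per kb, and Kcnd3 and Kcnd1 had 120 and 109. The potassium channel interacting proteins of the Kcnip subfamily, calcium sensors that bind Kv4 channels and bring them to the membrane, summed to 1092 per kb, 1.95 times the 560 of the Kcnd genes. The size of this ratio depended on the length used, although the Kcnip sum stayed the higher. The shares of Kcnip and Kcnd in the summed level were 5.04 and 1.60% per kb of coding sequence. With no length scaling they were 2.64 and 2.08%. Kcnip3 led with a level of 551, and Kcnip4, Kcnip1 and Kcnip2 had 248, 178 and 115. Dpp6 and Dpp10, the other known Kv4 partners, had 615 and 104 base mean per kb.

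The Kcnh genes include the ERG, EAG and ELK channels. Kcnh2 (ERG1), which carries the repolarising current of the heart, had a base mean of 3552 and a level of 733 base mean per kb (chr5:24319589-24351604, minus strand). It held 75.5% of the summed level of the 8 Kcnh genes. Kcnh1 followed at 102 base mean per kb, 7.20 times lower, and Kcnh5 and Kcnh6 had 49.3 and 49.1. The ELK genes Kcnh8, Kcnh4 and Kcnh3 had 19.9, 6.06 and 5.99, and Kcnh7 had 5.93. A single gene thus accounted for most of the level of the largest voltage-gated subfamily.

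The Kcnq (Kv7) genes include those of the M-current, which closes when muscarinic receptors are activated and so sets neuronal excitability. Kcnq3 had a level of 186 base mean per kb and Kcnq5 had 45.8. Kcnq1, known from heart and inner ear, had 10.3. The long noncoding RNA Kcnq1ot1, transcribed against Kcnq1, had a base mean of 216 beside the 42.3 of Kcnq1, but its single exon is 93092 bases long, which gave it 2.32 base mean per kb.

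Among the inward rectifiers, Kcnj10 and the other 12 genes stood far apart. Inward rectifiers pass potassium more easily into the cell and hold the membrane near the potassium equilibrium. Kcnj10 codes for Kir4.1, the channel with which astrocytes and oligodendrocytes take up potassium released by neurons. With a base mean of 26910 and a level of 4977 per kb it was the highest subunit gene under each of the scales tried, and on the main scale it lay at the 99.4th percentile of all genes (chr1:172341210-172374085, plus strand). It held 74.2% of the summed level of its class. Kcnj16 (Kir5.1), which joins Kir4.1 in mixed channels, had a level of 418, so that Kcnj10 was 11.9 times higher per kb. The neighbouring gene Kcnj9, 11891 bases away on the other strand, had 223 base mean per kb.

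The G protein-gated inward rectifiers Kcnj3, Kcnj9, Kcnj6 and Kcnj5 slow neurons when inhibitory receptors are activated. Kcnj3 had a level of 342 base mean per kb and Kcnj9 had 223, whereas Kcnj6 had 29.0 and Kcnj5 had 3.02. Of the exon bases of Kcnj3, 31.1% are shared with a gene on the other strand. Kcnj11 and Kcnj8, the pores of the ATP-sensitive channels, had 256 and 57.3 base mean per kb, a ratio of 4.47. Their sulfonylurea receptors Abcc8 and Abcc9 had 111 and 60.4. The Kir2 genes Kcnj14, Kcnj12, Kcnj2 and Kcnj4, which code for strong rectifiers, had 179, 150, 51.9 and 5.30. Kcnj13, an epithelial channel, had 15.0 base mean per kb, and 49.1% of its exon bases are shared with another gene. Kcnj1, known from the kidney, was listed at 0.

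Two-pore-domain channels carry the background potassium current. Kcnk1 (TWIK1) had a level of 1006 base mean per kb (chr8:125995170-126030685, plus strand), followed by Kcnk9 at 345, Kcnk13 at 229 and Kcnk3 at 222. Kcnk9 and Kcnk3 are the acid-sensitive TASK channels, and Kcnk13 (THIK1) is known from microglia. The leader of the subfamily depended on the length used: Kcnk1 was 2.92 times Kcnk9 per kb of exon and only 0.635 times per kb of coding sequence, because the merged exons are 2235 bases long in Kcnk1 and 12300 in Kcnk9. The other members were lower, with Kcnk12 at 99.6, Kcnk2 (TREK1) at 97.5, Kcnk10 at 44.7, Kcnk4 at 33.2, Kcnk6 at 23.1 and Kcnk5 at 20.1 base mean per kb. Of the exon bases of Kcnk4, 13.1% are shared with a gene on the same strand.

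Among the calcium- or sodium-activated genes, Kcnt1 (Slack), a channel opened by sodium that enters with repeated firing, had a base mean of 5039 and a level of 530 per kb. It held 60.1% of the summed level of the class, and its paralog Kcnt2 had 35.8. Kcnma1, the pore of the large-conductance BK channel, had a level of 47.9 from a base mean of 813, so that Kcnt1 was 11.1 times higher per kb and 6.19 times higher with no scaling. The SK genes Kcnn1, Kcnn2 and Kcnn3, whose channels carry the afterhyperpolarisation, had levels of 101, 99.2 and 39.4, and the order of Kcnn1 and Kcnn2 was turned with each of the other lengths and with no scaling. Kcnn4, known from blood cells, was the lowest subunit gene at 2.63 base mean per kb. Kcnu1, known from sperm, had 25.9.

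Auxiliary subunits change the gating or trafficking of pore-forming subunits. The Kcnab genes code for the cytoplasmic beta subunits of Kv1 channels. Kcnab2 had a base mean of 13934 and a level of 2498 base mean per kb (chr4:152390742-152477871, minus strand), and Kcnab3 and Kcnab1 had levels of 936 and 391. The sum of the 3 Kcnab levels was 3825 beside 5275 for the Kcna genes, a ratio of 0.725. Of the BK beta subunits, Kcnmb4 had 61.6 base mean per kb, Kcnmb2 had 25.9 and Kcnmb1, known from smooth muscle, had 6.53, and of the exon bases of Kcnmb4 31.5% are shared with antisense genes. Their sum was 94.0 beside 47.9 for Kcnma1, a ratio of 1.96. The direction of this ratio depended on the processing: the shares of Kcnmb and Kcnma were 0.134 and 0.198% with genes that share at least 10% of their exon bases left out, and 0.190 and 0.492% with no length scaling. Of the small Kcne subunits, Kcne1l had 180 and Kcne4 had 15.0.

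**Figure D4:**
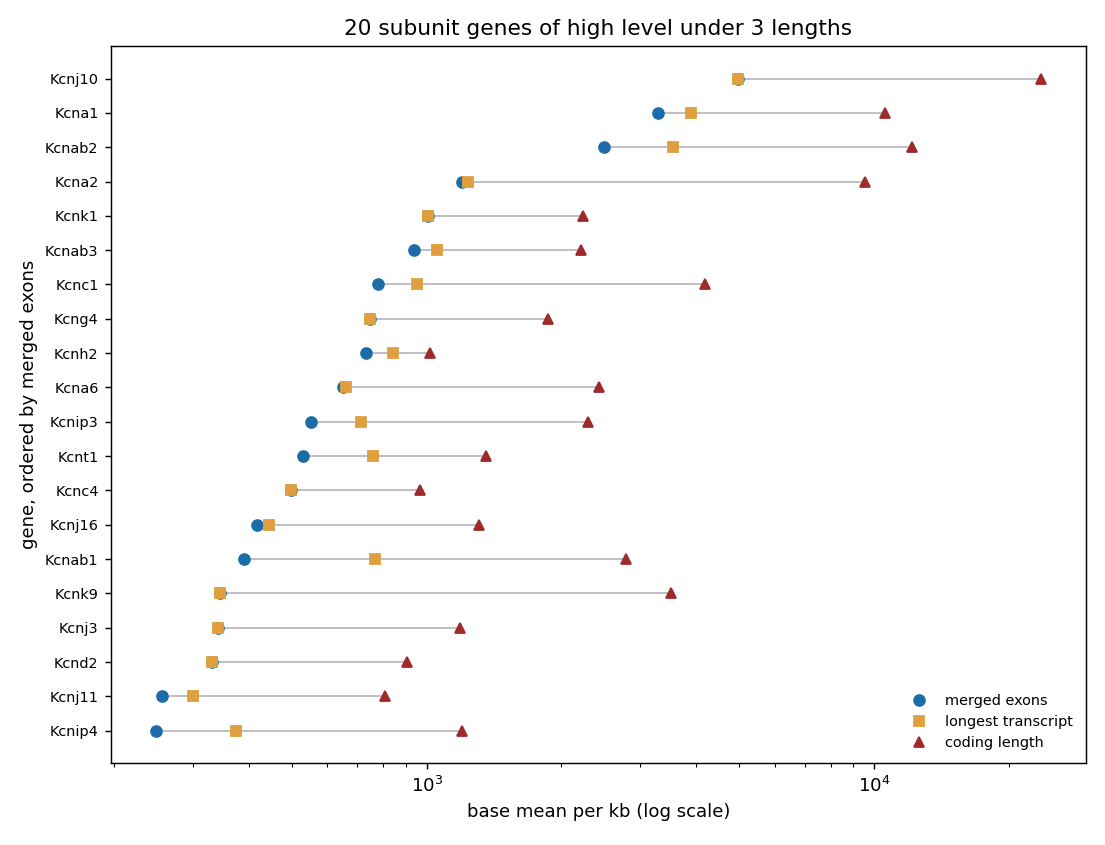
Base mean per kb on a log scale (x axis) of 20 subunit genes of high level (y axis), with the length taken as merged exons (circles), as the longest transcript (squares) or as coding sequence (triangles). Kcnj10 is highest under each, whereas Kcnk9 moves from 345 per kb of merged exons to 3514 per kb of coding sequence and passes Kcnk1, at 1006 and 2232.

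Genes of other proteins that assemble with or cluster these channels were also listed. Of these 20 partner genes, 19 reached the minimum base mean of 10, beside 15918 of all 25232 genes of the table. The partners were picked by hand, so this count is a description. Of those that hold Kv1 channels at the juxtaparanode, Cntn2 had a level of 1303 base mean per kb and Cntnap2 had 283. The scaffold genes Dlg4 and Dlg1 had 527 and 278. Lgi1 and its receptors Adam22 and Adam23 had 184, 359 and 425. The leucine-rich repeat genes Lrrc55, Lrrc26 and Lrrc38, whose proteins modulate BK channels, had 84.3, 15.3 and 14.2, and Lrrc52 had a base mean of 9.51, under the minimum. Kcna1, Kcna2, Kcnab2, Cntn2 and Cntnap2, pore, beta subunit and adhesion genes of the juxtaparanode, all stood above the median of all genes. This set was put together by hand, so its levels are a description. Among all 79 subunit genes, 44.3% lay above that median.

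The members just inside the minimum were Kcnj4, Kcnn4 and Kcnj5, with base means of 11.4, 13.4 and 14.1. Just outside were Kcnk7, Kcnv2 and Kcng3, with 7.17, 6.43 and 6.13. In all, 14 of the 98 Kcn genes of the table lay below the minimum, among them Kcne2, Kcne3 and Kcne1 with base means of 4.40, 1.98 and 0.273, Kcnmb3 with 0.290 and Kcna7 with 1.45. The 5 members that are not subunit genes were Kcnq1ot1, the antisense transcripts Kcnmb4os1, Kcnmb4os2 and Kcnd3os with base means of 110, 69.7 and 15.5, and Kcnrg, a regulator of Kv1 channels, with 16.9. The antisense transcripts share 43.1, 34.2 and 12.2% of their exon bases with other genes, so their values and those of their partners are uncertain without the strand of the reads.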

How the data were processed

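The data are RNA-seq libraries, stranded and poly(A)-selected, from spinal cords of 5 WT and 5 SOD1 G93A females. The lumbar cord is named in the methods but not in the labels. Per the submitters' processing notes and the methods, the authors trimmed reads with Fastp, aligned them to mm10 with HISAT2 2.1.0, counted uniquely mapped reads per gene with featureCounts 2.0.2 and compared the groups with DESeq2. The gene annotation and the strand setting of the counting are not given in the sources used here.

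The base mean, a signal that the authors deposited as 1 value per gene, is the mean of the size-factor-scaled counts of all 10 libraries. The other 5 columns hold the authors' comparison of SOD1 G93A with WT (the log2 fold change, its standard error, the Wald statistic, the p-value and the adjusted p-value) and were not used. No values of single libraries were analysed here, so depth and precision per library are unknown and no test was made. The groups were taken from the labels.

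Base means were divided by merged exon length (GENCODE M21, mm10), with the longest transcript, the coding length and no length as alternatives, in Python 3.11.15 with numpy 2.4.6 and matplotlib 3.10.9. A length was found for 98.2% of the 15918 genes that reached the minimum of 10. The scripts were tested on a simulated annotation without read counts or noise, where the levels of all 200 genes were recovered. This recovery covers the reading of lengths and the scaling only. Any member could be named. Values were planned for the 3 highest and the lowest of each subfamily, the 10 highest and 5 lowest overall and those next to the minimum. Values of further members were given as well. Filter bases were read from in-frame translations of the transcripts. The members, the classes and the lists of markers and partners were chosen with earlier results of these data known. Some genes and 1 sequence covered by these rules are not reported here, although sums, counts and medians include them.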

Additional observations from a re-analysis of the deposited data

How the results depend on the processing

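Without a spread between libraries, a share was taken as moved where it changed by more than 1.5-fold. The number of members was 84 at a minimum base mean of 10 and 87, 72 and 63 at minima of 5, 50 and 100, and 97 genes had a base mean above 0. The inward rectifier share fell from 23.7% to 7.43% with Kcnj10 left out, an alternative chosen after seeing the data. The calcium- or sodium-activated share was 4.74% with no length scaling and 3.12% per kb of merged exons. The shares of the other 3 classes stayed within 1.5-fold under each alternative tried. Of 20 subfamily shares, 5 moved with coding length, 9 with no length scaling, 3 at a minimum of 100 and 0 with the longest transcript. Leaving out the 7 subunit genes with at least 10% of exon bases shared with another gene, also chosen after seeing the data, moved 2. The leading gene changed in Kcnk and Kcnn only, of the subfamilies with several members. The 10 highest genes shared 9, 6 and 6 with those by longest transcript, coding length and no scaling. No paired analysis was possible because the table holds no values of single libraries, and replicates could not be left out in turn for the same reason.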

Other observations

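Other gene families with ion channel symbols had higher median levels than the 99.6 base mean per kb of the 79 potassium channel subunit genes, except for the Hcn genes. None of these differences was tested. The 13 sodium channel (Scn) genes at or above the minimum had a median of 152 base mean per kb. The 24 genes with the symbols Cacna, Cacnb and Cacng had a median of 155, with Cacng7 highest at 1648. They were grouped by symbol alone, and genes with a Cacng symbol need not code for calcium channel subunits. The 7 chloride channel and transporter (Clcn) genes had a median of 290, led by Clcn6 at 708. The 4 Hcn genes, whose channels open on hyperpolarisation and pass both sodium and potassium, had a median of 85.1. Hcn2 stood far above that, at 2725 base mean per kb, beside 87.8 for Hcn4 and 82.3 for Hcn3.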
